A study of Mus musculus with 8 samples.

Results

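The chemokine and chemokine receptor genes of primary mouse embryonic fibroblasts lacking Cbx2 were compared with those of fibroblasts from wild-type littermates. The set holds every gene of the expression table whose symbol is Ccl, Cxcl, Cx3cl, Ccr, Cxcr, Cx3cr or Ackr followed by a number, which gave 45 of 17441 genes. Of these, 27 encode ligands (15 CC, 11 CXC and 1 CX3C) and 18 encode receptors (7 CC, 6 CXC, 1 CX3C and 4 atypical). The rule reads names alone, although the set was picked with earlier results of these data known. Cbx2 reads histone marks through its chromodomain as part of polycomb repressive complex 1, a silencer of developmental genes. The Cbx2-/- cells carry a targeted deletion of Cbx2 and the wild-type cells do not. Both were taken at embryonic day 18 and grown to passage 2, and RNA was sequenced from 2 libraries per genotype, each from 200000 cells and about 4.62 Gb of sequence. No label says whether libraries of the same genotype were made from different embryos, so p-values speak for these libraries only. ATAC-seq libraries of the same genotypes are not analysed here.

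Chemokines are small secreted proteins that steer migrating cells. They are retained on heparan sulphate at the cell surface and in the matrix, and they signal through G-protein-coupled receptors carried mostly by leukocytes. The names follow the spacing of the first cysteines (CC, CXC, CX3C). Atypical receptors bind chemokines without coupling to G proteins and take them up from the surroundings. Fibroblasts are a known source of chemokines for neutrophils and monocytes, such as Cxcl1 and Ccl2, many of which are switched on through NF-kB, and of Cxcl12, which holds stem and progenitor cells in their niches.

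The authors' deposited table gives 1 normalised read value per genotype, a log2 fold change (Cbx2-/- over wild type), a p-value and an adjusted p-value from DESeq2. A gene was called where that adjusted p was under 0.05. These values have no SD, and the standard errors and 95% intervals given with them were worked out from the deposited fold change and p. The values of all genes summed to 18910077 in Cbx2-/- cells and 19428299 in wild-type cells. The fold changes are pulled toward 0 in genes with few reads, and each column carries the same pull. In genes whose reads per library (below) gave a 2-fold change or more, the median deposited log2 fold change was 20.4% as large as the one from reads at mean values under 5, and 80.2% as large at means of 20 to 50. For 35 of the 45 genes, all with a mean value under 75, the whole reads of each library could be worked back from the table and are given below. Which library of a genotype is which cannot be told from the table, so a pair of read counts names no replicate. Cbx2 itself had 29.0 in Cbx2-/- cells and 347 in wild-type cells (log2 fold change -3.58, SE 0.25, adjusted p = 2.55e-44, authors' deposited table).

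The fibroblast label was checked against markers. The collagen genes Col1a1 and Col1a2 and the receptors Pdgfra and Pdgfrb were high in both genotypes, with Col1a1 at 227630 in Cbx2-/- cells and 264489 in wild-type cells (authors' deposited table). Col1a1 was not called, and Col1a2, Pdgfra and Pdgfrb were called lower in Cbx2-/- cells (log2 fold change -0.29, -0.61 and -0.44, authors' deposited table). Epcam and Cdh1, which define epithelium, had 5 reads or fewer in each genotype, and Pecam1, which defines endothelium, had 4 reads in each. Other genes of those lists were higher in level. The epithelial keratin Krt19 had 178 in Cbx2-/- cells and 191 in wild-type cells, and the endothelial gene Flt1 had 369 in Cbx2-/- cells and 540 in wild-type cells (authors' deposited table). Krt18, Cdh5 and Esam are given below with their differences. The leukocyte marker Ptprc had 21 and 16 reads in the Cbx2-/- libraries and 3 and 3 in the wild-type libraries.

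The promoters of 3 neighbouring Cxc genes are shown because Cxcl1 had one of the largest falls among the 45 genes and all of them carry the same run of letters. Cxcl3 leaned the same way as Cxcl1 without a call. Cxcl2 had only 33 reads in all, and its deposited log2 fold change was 0.093 (interval -0.96 to 1.14). That interval overlaps those of Cxcl1 (-1.48 to -0.79) and Cxcl3 (-1.64 to -0.075). Whether Cxcl2 differs from them was not tested. Each line gives the 120 bases just before the RefSeq start site on the given (plus) strand of chromosome 5, GRCm38.p6, at chr5:90891125-90891244 for Cxcl1, chr5:90785981-90786100 for Cxcl3 and chr5:90903779-90903898 for Cxcl2. Capitals mark matches on either strand to kappaB letters, the DNA motif of NF-kB, taken here as GGG, any 3 bases and TTCC.
Cxcl1: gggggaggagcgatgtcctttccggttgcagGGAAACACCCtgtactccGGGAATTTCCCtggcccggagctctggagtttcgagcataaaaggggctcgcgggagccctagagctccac
Cxcl3: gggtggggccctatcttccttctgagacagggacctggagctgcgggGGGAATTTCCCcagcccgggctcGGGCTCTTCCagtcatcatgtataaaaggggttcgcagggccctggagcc
Cxcl2: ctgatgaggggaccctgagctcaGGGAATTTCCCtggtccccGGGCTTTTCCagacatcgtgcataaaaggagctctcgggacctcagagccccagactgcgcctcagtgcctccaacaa
The run GGGAATTTCCC holds 2 overlapping matches, 1 on each strand, and starts 71 bases before the start site in Cxcl1, 73 in Cxcl3 and 97 in Cxcl2. It was picked out after these sequences were seen. Within 250 bases before the start site it stood in 14 of 32851 promoters of the RefSeq table (0.0426%). Those 14 promoters belong to 14 genes, of which 6 were in the expression table, and 1 of these was called lower (Cxcl1) and 1 higher (Il16). A match is a description of letters only.

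Of the 45 genes, 7 were called, 2 higher and 5 lower in Cbx2-/- cells. Over all 17441 genes 7.78% were called, 3.48% higher and 4.3% lower. All 7 were among the 10 members with a mean value of 100 or more, where 11.4% of the 10384 genes at that level were called, 4.7% higher and 6.68% lower. Of the 35 members below 100 none was called by DESeq2, while 2.48% of the 7057 genes at that level were. An unadjusted p under 0.05 was found for 4 of the 35 and for 416 of the 7057. With 10% of spread between libraries added to the deposited errors, only Cxcl5 and Cxcl1 remained called. The median log2 fold change was 0.097 over the 45 members and 0.0036 over all genes, and it was -0.17 over the 10 higher members and -0.0085 over all genes at that level. The summed value of the 45 genes was 7035 in Cbx2-/- cells and 8075 in wild-type cells (authors' deposited table).

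**Figure D1:**
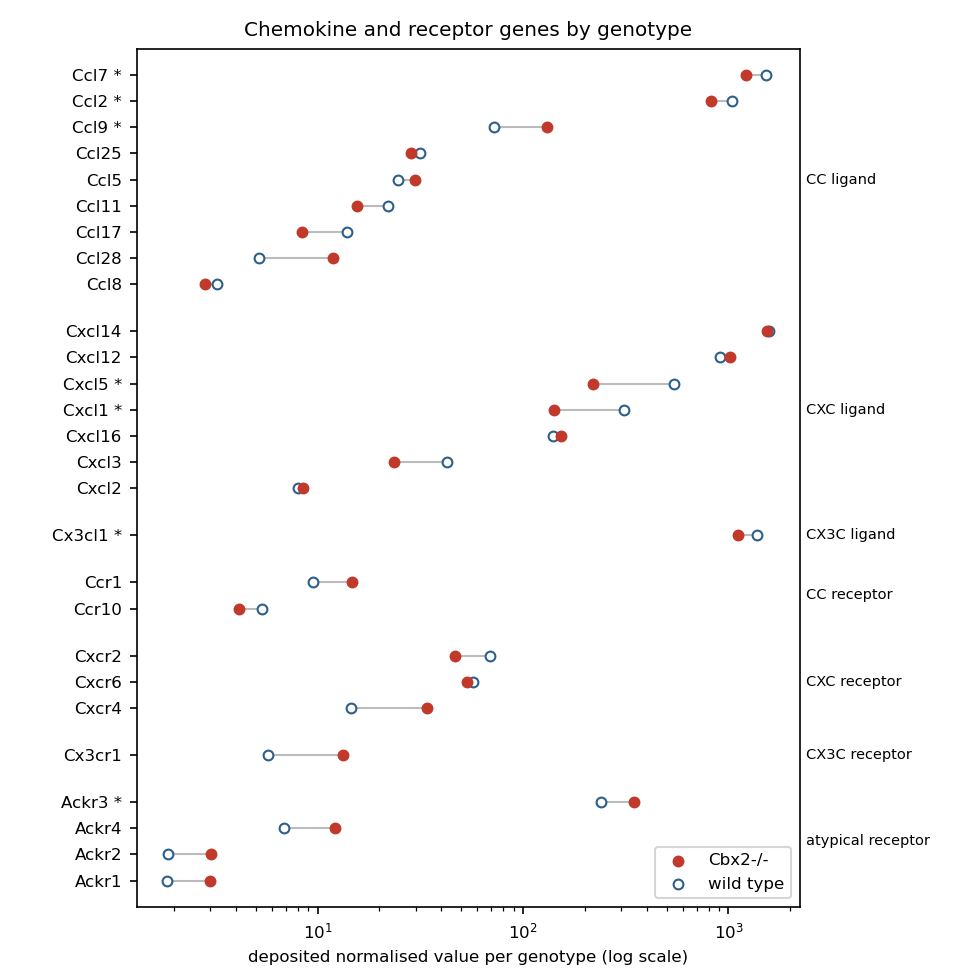
Deposited normalised value (log axis) of the 27 members with a mean value of 100 or more, or with 10 or more recovered reads, by role, with Cbx2-/- cells as filled and wild-type cells as open points, and an asterisk for an adjusted p under 0.05. The values are not per length. Cxcl14, Ccl7, Cx3cl1, Ccl2 and Cxcl12 lie at the high end, and Ackr3 is the receptor with the highest value.

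Per kilobase of transcript, the order of levels, by the mean of both genotypes, was Ccl7, Ccl2, Cxcl14, Cxcl12 and Cx3cl1, then Cxcl1, Cxcl5, Ackr3 and Cxcl16. The deposited value per kilobase was 1342 for Ccl7 in Cbx2-/- cells and 1664 in wild-type cells, and for Cxcl1 it was 147 in Cbx2-/- cells and 323 in wild-type cells. Ackr3 was the receptor with the highest level per kilobase, at 167 in Cbx2-/- cells and 116 in wild-type cells. The receptor next to it in level, Cxcr6, had 28.2 per kilobase in Cbx2-/- cells and 30.02 in wild-type cells. Some neighbours stood in another order in 1 genotype. Cxcl12 lay above Cx3cl1 in Cbx2-/- cells (444 and 355 per kilobase) and below it in wild-type cells (396 and 438). Ackr3 lay above Cxcl1 and Cxcl5 in Cbx2-/- cells and below them in wild-type cells. With a single value per genotype the order of close neighbours could not be tested.

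The ligands of Cxcr2, the receptor by which neutrophils follow CXC chemokines, held the largest falls among called members. Cxcl5 (gene 20311, chr5:90759298-90761625) had 218 in Cbx2-/- cells and 541 in wild-type cells, or 0.403 times as much (log2 fold change -1.31, SE 0.14, 95% interval -1.59 to -1.04, adjusted p = 1.72e-18, authors' deposited table). Cxcl1 (gene 14825, chr5:90891245-90893121), also known as KC, had 142 in Cbx2-/- cells and 312 in wild-type cells, or 0.456 times as much (log2 fold change -1.13, SE 0.18, interval -1.48 to -0.79, adjusted p = 9.99e-09, authors' deposited table). They were the only members past both an adjusted p of 0.05 and a 2-fold change, a rule that 1.69% of all genes passed, 0.682% in the lower direction.

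Cxcl3, another Cxcr2 ligand, had 27 and 18 reads in the Cbx2-/- libraries and 40 and 46 in the wild-type libraries. Both Cbx2-/- libraries lay below both wild-type libraries. The deposited adjusted p was 0.251. Cxcl2, which also signals through Cxcr2, had 9 and 9 reads in the Cbx2-/- libraries and 5 and 10 in the wild-type libraries, and the genotypes overlapped. Cxcr2 itself had 44 and 50 reads in the Cbx2-/- libraries and 74 and 62 in the wild-type libraries, with no overlap and a deposited adjusted p of 0.457. The related receptor Cxcr1 had 1 and 1 reads in the Cbx2-/- libraries and 0 and 0 in the wild-type libraries.

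All of these ligands lie in 1 cluster of 147 kb on chromosome 5. Its members did not move as a block. Between Cxcl5 and Cxcl3 lies Ppbp, the platelet chemokine that signals through Cxcr2, with 647 in Cbx2-/- cells and 567 in wild-type cells (log2 fold change 0.19, adjusted p = 0.478, authors' deposited table). Its neighbour Pf4 had 4 and 8 reads in the Cbx2-/- libraries and 9 and 2 in the wild-type libraries. Cxcl15, a lung chemokine, had 1 and 1 reads in the Cbx2-/- libraries and 0 and 1 in the wild-type libraries. Cell type markers moved beside these falls. Of 7 epithelial markers 2 were called lower and 5 were not called, with a list median of -0.030 on the log2 scale. The keratin gene Krt8 had 3 and 5 reads in the Cbx2-/- libraries and 97 and 100 in the wild-type libraries, and Krt18 had 75.6 in Cbx2-/- cells and 260.4 in wild-type cells (authors' deposited table). Of 14 fibroblast markers 10 were called lower and 1 higher, where 6.68% and 4.7% of genes with a mean of 100 or more were. The higher one was Thy1, with 11919 in Cbx2-/- cells and 4928 in wild-type cells (log2 fold change 1.27, adjusted p = 2.61e-187, authors' deposited table). The median of that list was -0.33 on the log2 scale. Their part in the falls of Cxcl1 and Cxcl5 was not tested. In bulk RNA, fewer cells of a type and less RNA per cell cannot be told apart.

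**Figure D2:**
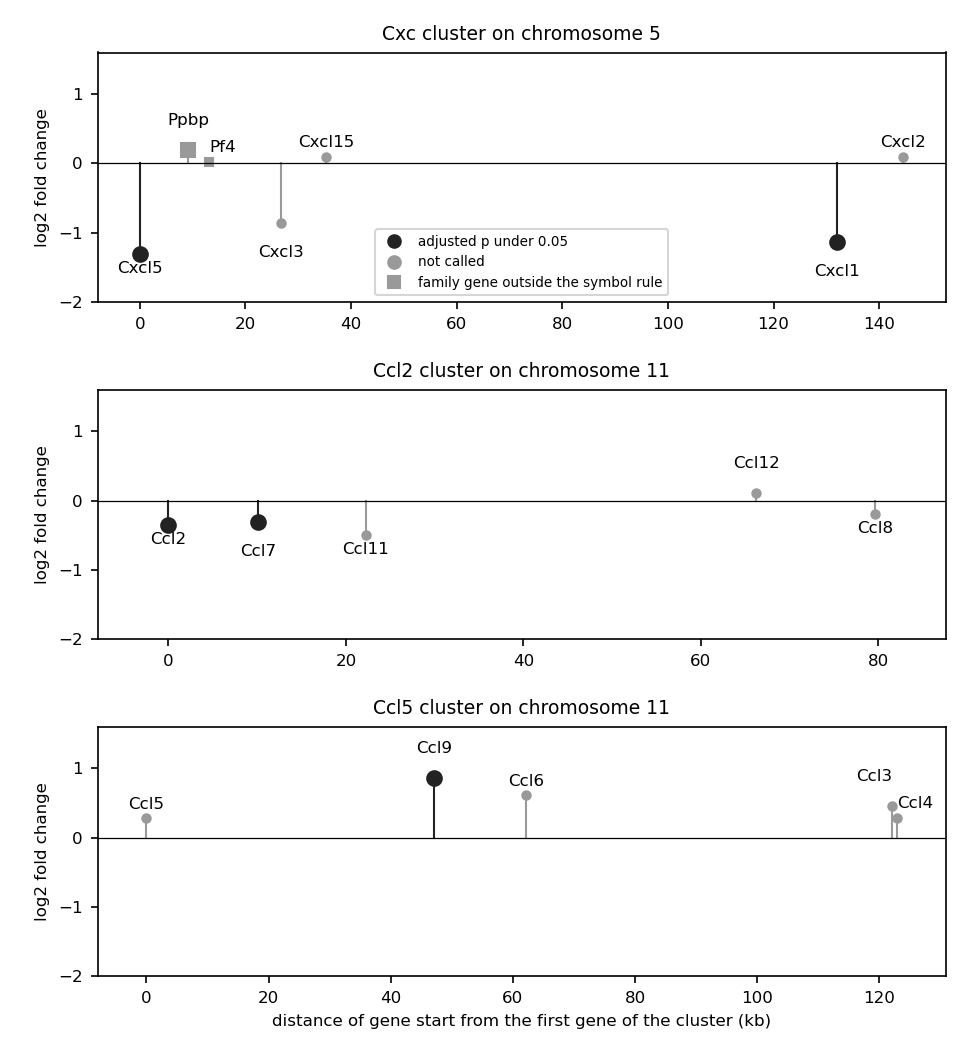
Deposited log2 fold change (Cbx2-/- over wild type) of the chemokine genes in 3 clusters, against the distance of each gene's start from the first gene of its cluster in kb. Black points have an adjusted p under 0.05, and squares are family genes that the symbol rule leaves out. In the Cxc cluster Cxcl5 and Cxcl1 lie near -1.31 and -1.13 with Ppbp at 0.19 between them. In the Ccl5 cluster every point is above 0, with under 10 reads for Ccl3, Ccl4 and Ccl6.

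Of the 34 promoters in the RefSeq table that belong to 33 of the 45 members, 7 held the kappaB letters within 250 bases before the start site (20.6%), against 4.65% of all 32851 promoters. The 7 genes were Cxcl1, Cxcl2, Cxcl3, Cxcl10, Ccl9, Ccl20 and Ccr3. Of these Cxcl1 was called lower, Ccl9 was called higher and the other 5 were not called. Cxcl5, Ccl2 and Ccl7 were not among the 33 genes, and their promoters were not searched here. The letters TATAAA, read on the gene's own strand, stood in 32.4% of member promoters and 7.59% of all promoters. The IRF letters (GAAA, any 2 bases and GAAA) stood in 8.82% of member promoters and 2.98% of all promoters, the AP-1 letters TGANTCA in 8.82% and 6.75%, and the C/EBP letters TTGCNNAA in 2.94% and 9.56%. The kappaB, IRF, AP-1 and C/EBP letters were searched on both strands, and none of these shares was tested. None of the 23 NF-kB pathway genes was called by DESeq2, where 7.78% of all genes and 11.4% of those with a mean of 100 or more were. An unadjusted p under 0.05 was found for 3 of the 23, and for 14.6% of all genes. Half-way in rank, these genes stood at 0.057 on the log2 scale (the median). With so few genes, the absence of calls is not set apart from those shares, and NF-kB activity was not tested.

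The monocyte-attracting ligands Ccl2 and Ccl7 fell by less. Ccl2 (gene 20296, chr11:82035577-82037452), also called MCP-1, had 821 in Cbx2-/- cells and 1046 in wild-type cells (log2 fold change -0.35, SE 0.092, interval -0.53 to -0.17, adjusted p = 0.00296, authors' deposited table). Ccl7 (gene 20306, chr11:82045712-82047525), the ligand next to it, had 1223 in Cbx2-/- cells and 1518 in wild-type cells (log2 fold change -0.31, SE 0.077, interval -0.46 to -0.16, adjusted p = 0.00126, authors' deposited table). The median of the fibroblast markers, -0.33, had the same direction as Ccl2, Ccl7 and Cx3cl1, although Thy1 was called higher. The part of these markers in the values of the 3 ligands was not tested. Ccr2, the receptor of Ccl2 and Ccl7 on monocytes, had 1 and 0 reads in the Cbx2-/- libraries and 1 and 1 in the wild-type libraries. The other genes of this 81.2 kb cluster were low. The eosinophil chemokine Ccl11 had 13 and 17 reads in the Cbx2-/- libraries and 28 and 17 in the wild-type libraries (deposited adjusted p = 0.871). Ccl8 had 5 reads in Cbx2-/- cells and 7 in wild-type cells, and Ccl12 had 1 read in Cbx2-/- cells and 0 in wild-type cells.

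Cx3cl1, or fractalkine, is a membrane-bound ligand that is cut from the cell surface and acts on Cx3cr1 of monocytes and macrophages. Cx3cl1 (gene 20312, chr8:94772180-94782427) had 1118 in Cbx2-/- cells and 1379 in wild-type cells (log2 fold change -0.30, SE 0.080, interval -0.46 to -0.15, adjusted p = 0.00333, authors' deposited table). Its receptor Cx3cr1 had 17 and 15 reads in the Cbx2-/- libraries and 5 and 2 in the wild-type libraries, with no overlap and a deposited adjusted p of 0.201. Ccl17, a T cell chemokine 37.2 kb from Cx3cl1, had 3 and 11 reads in the Cbx2-/- libraries and 14 and 16 in the wild-type libraries, again without overlap (deposited adjusted p = 0.675). Its log2 fold change from reads was -1.37 ± 0.52 (SE, 2 libraries per genotype, adjusted p = 0.115 in limma).

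**Figure D3:**
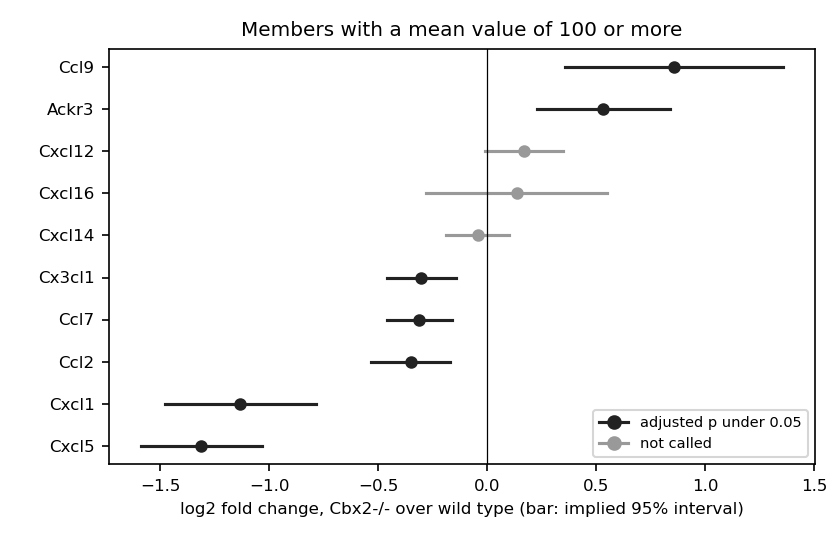
Deposited log2 fold change (Cbx2-/- over wild type) of the 10 genes with a mean value of 100 or more, with bars for the 95% interval worked out from the deposited p. The intervals of Cxcl5 and Cxcl1 lie apart from those of Ccl2, Ccl7 and Cx3cl1, and the intervals of Cxcl12, Cxcl16 and Cxcl14 include 0.

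In the Cxcl12 axis the atypical receptor Ackr3 was called higher, and the ligand was not called. Cxcl12 (gene 20315, chr6:117168535-117181368), the stromal ligand of Cxcr4, had 1018 in Cbx2-/- cells and 906 in wild-type cells (log2 fold change 0.17, SE 0.092, interval -0.013 to 0.35, adjusted p = 0.417, authors' deposited table). Ackr3 (gene 12778, chr1:90203980-90215724), an atypical receptor that takes up Cxcl12, rose to 345 in Cbx2-/- cells, against 239 in wild-type cells (log2 fold change 0.53, SE 0.16, interval 0.23 to 0.84, adjusted p = 0.0113, authors' deposited table). Cxcr4, the signalling receptor, had 39 and 36 reads in the Cbx2-/- libraries and 11 and 13 in the wild-type libraries. Both Cbx2-/- libraries lay above both wild-type libraries, 2.93 times as high on average after scaling. Its deposited log2 fold change was 1.22, SE 0.44, with an adjusted p of 0.0661, so it was not called. When genes with a mean under 10 were left out before adjustment, the adjusted p of Cxcr4 was 0.0498. With 10% or 20% of spread between libraries added to the deposited errors it was 0.225 or 0.813. Endothelial markers moved beside Ackr3 and Cxcr4 only in part. Of the 10 measured, 2 were called higher and 1 lower, and their values summed to 1123 in Cbx2-/- cells and 798 in wild-type cells (authors' deposited table). Cdh5 had 324 in Cbx2-/- cells and 61.6 in wild-type cells (log2 fold change 2.40, adjusted p = 1.97e-27, authors' deposited table). Esam had 290 in Cbx2-/- cells and 35.6 in wild-type cells (log2 fold change 3.03, adjusted p = 1.12e-32, authors' deposited table). Pecam1 had 1 and 3 reads in the Cbx2-/- libraries and 2 and 2 in the wild-type libraries, and Kdr had 57 and 41 in the Cbx2-/- libraries and 58 and 61 in the wild-type libraries. Macrophage markers, given below with Ccl9, were also higher in Cbx2-/- cells, with 12 of 19 called. The part of either list in the receptor values was not tested.

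Cxcl14 and Cxcl16 were not called. Cxcl14 (gene 57266, chr13:56288643-56296811), a ligand made by skin fibroblasts and epithelium, had 1534 in Cbx2-/- cells and 1582 in wild-type cells (log2 fold change -0.045, SE 0.073, interval -0.19 to 0.099, adjusted p = 0.931, authors' deposited table). Cxcl16 (gene 66102, chr11:70454389-70459984), a membrane-bound ligand of Cxcr6, had 154 in Cbx2-/- cells and 140 in wild-type cells (log2 fold change 0.14, SE 0.21, interval -0.28 to 0.55, adjusted p = 0.931, authors' deposited table). Its receptor Cxcr6 had 63 and 47 reads in the Cbx2-/- libraries and 61 and 50 in the wild-type libraries, and the genotypes overlapped. Cxcl16 overlaps Zmynd15 and Cxcr6 overlaps Fyco1 in RefSeq, and no source used here says whether counting used strand, so these values may hold reads of both genes. Overlap with another gene of the expression table holds for 11 members in all, none of them called.

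Ccl9 was the only ligand called higher. Ccl9 (gene 20308, chr11:83572917-83578636), a ligand of Ccr1 known from mouse macrophages, had 130 in Cbx2-/- cells and 72.1 in wild-type cells (log2 fold change 0.86, SE 0.25, interval 0.36 to 1.35, adjusted p = 0.0131, authors' deposited table). The other genes of its 139 kb cluster had few reads. Ccl6, which neighbours it and also binds Ccr1, had 4 and 2 reads in the Cbx2-/- libraries and 0 and 0 in the wild-type libraries. Ccl3 had 2 and 4 reads in the Cbx2-/- libraries and 0 and 1 in the wild-type libraries, and Ccl4, which overlaps it in RefSeq, had 1 and 3 in the Cbx2-/- libraries and 0 and 1 in the wild-type libraries. Ccl5 had 27 and 36 reads in the Cbx2-/- libraries and 30 and 17 in the wild-type libraries, and overlapped. All 5 had a deposited log2 fold change above 0, as had 8843 of all 17441 genes and 2414 of the 4407 with a mean under 10. Ccl6, Ccl3 and Ccl4 each had under 10 reads. The receptor Ccr1 had 19 and 14 reads in the Cbx2-/- libraries and 8 and 8 in the wild-type libraries, with no overlap and a deposited adjusted p of 0.779.

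Macrophage markers moved beside Ccl9, Ccr1 and Cx3cr1. Of the 19 markers 12 were called higher and 0 lower, with a median log2 fold change of 1.61. The 14 of them with recovered reads summed to 386 and 416 in the Cbx2-/- libraries and 70 and 85 in the wild-type libraries. Lyz2 had 947 in Cbx2-/- cells and 148 in wild-type cells (log2 fold change 2.68, adjusted p = 2.44e-86, authors' deposited table). Among defining markers, Adgre1 had 23 and 31 reads in the Cbx2-/- libraries and 2 and 7 in the wild-type libraries, and Tyrobp had 40 and 31 in the Cbx2-/- libraries and 4 and 8 in the wild-type libraries. Csf1r had 257 in Cbx2-/- cells and 245 in wild-type cells (adjusted p = 0.955, authors' deposited table). Their part in the values of Ccl9, Ccr1 and Cx3cr1 was not tested. The 6 neutrophil and mast cell markers in the table summed to 8 and 10 reads in the Cbx2-/- libraries and 7 and 6 in the wild-type libraries, with S100a8 at 3 and 0 in the Cbx2-/- libraries and 0 and 2 in the wild-type libraries. The 3 lymphocyte markers in the table summed to 27 and 23 reads in the Cbx2-/- libraries and 24 and 18 in the wild-type libraries. None of these 9 genes was called by DESeq2 or had an unadjusted p under 0.05.

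**Figure D4:**
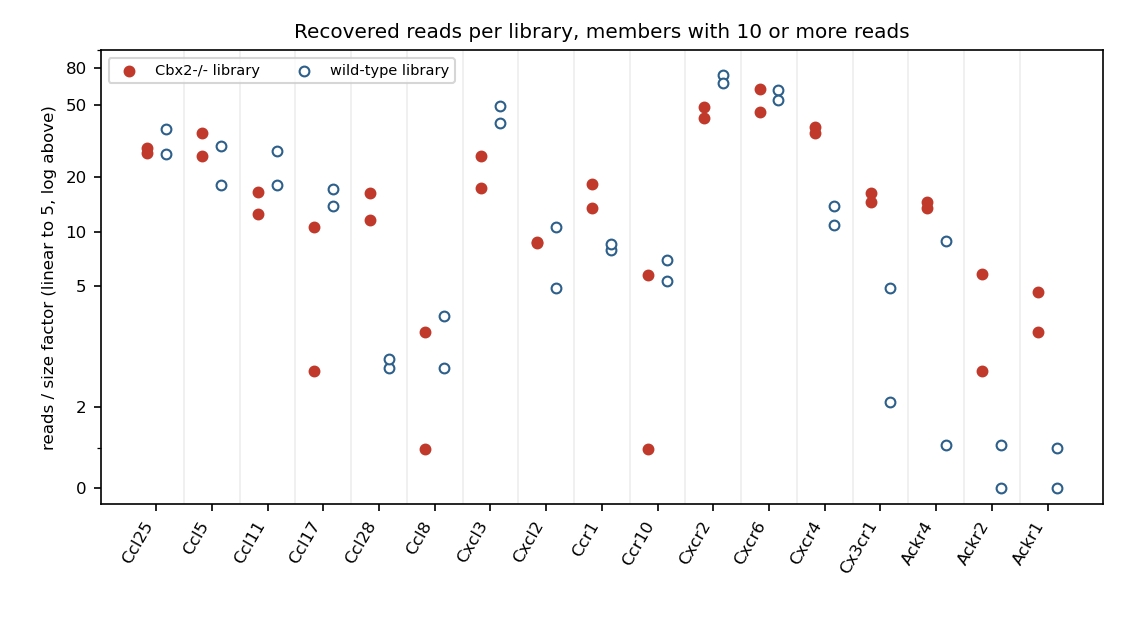
Recovered reads divided by the size factor of each library (linear to 5, log above) for the 17 members with 10 or more reads over the 4 libraries, with Cbx2-/- libraries as filled and wild-type libraries as open points. Cxcr4, Cx3cr1 and Ccl28 have both Cbx2-/- libraries well above both wild-type libraries, and Cxcl3 and Cxcr2 have them below.

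The reads per library gave a closer view of the 17 members with 10 or more reads over the 4 libraries. After scaling, the libraries of the genotypes did not overlap for 11 of them, 7 higher and 4 lower in Cbx2-/- cells. Over all 3772 genes with that many reads 51.6% did not overlap, 32.0% higher and 19.6% lower, so such separation was common. A limma fit on log2 (scaled reads + 0.5) over these 3772 genes called 4 of the 17, against 10.5% of all genes, 7.24% higher and 3.23% lower. Cxcr4 had a log2 fold change of 1.52 ± 0.31 (SE, 2 libraries per genotype, adjusted p = 0.00389 in limma). Cx3cr1 had 2.07 ± 0.51 (adjusted p = 0.0152 in limma). Ccl28, a mucosal ligand of Ccr10, had 17 and 12 reads in the Cbx2-/- libraries and 3 and 3 in the wild-type libraries, or 2.00 ± 0.51 (adjusted p = 0.0172 in limma). Cxcl3 had -1.03 ± 0.28 (adjusted p = 0.0260 in limma).

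These 4 genes were not called by the authors' DESeq2 test. A limma fit over all 6608 genes with recovered reads called 0 genes, with 1092 at an unadjusted p under 0.05. Leaving out 1 library at a time kept all 4 directions, on the assumption that the lone library of a genotype varies like the others. The adjusted p in limma then ran from 0.0392 to 0.264 for Cxcr4, 0.197 to 0.264 for Cx3cr1, 0.167 to 0.31 for Ccl28 and 0.0284 to 0.391 for Cxcl3, and no more than 1 of the 4 genes stayed called in any of these fits. Cxcr4 stayed called without the Cbx2-/- library of the smaller size factor, Cxcl3 without the other Cbx2-/- library, and none without either wild-type library. Reads not scaled by size factors gave adjusted p of 0.0586 to 0.154 in limma for the 4 genes. Cxcr2 had -0.61 ± 0.20 (adjusted p = 0.0600 in limma).

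All 4 atypical receptors had a deposited log2 fold change above 0, with a median of 0.70, and only Ackr3 was called. A value above 0 was common, with 8843 of all 17441 genes and 3922 of the 7057 with a mean under 100. Ackr4, which takes up Ccl19 and Ccl25, had 15 and 14 reads in the Cbx2-/- libraries and 9 and 1 in the wild-type libraries. Ackr2, a scavenger of inflammatory CC chemokines, had 3 and 6 reads in the Cbx2-/- libraries and 0 and 1 in the wild-type libraries. Ackr1, which carries chemokines across venules and on red cells, had 4 and 5 reads in the Cbx2-/- libraries and 1 and 0 in the wild-type libraries. For each of these 3 both Cbx2-/- libraries lay above both wild-type libraries, as they did in 32.0% of all genes with 10 or more reads. Ackr2 and Ackr1 had only 10 reads each over the 4 libraries. None of the 3 was called, with adjusted p in limma of 0.0790 for Ackr4, 0.287 for Ackr2 and 0.260 for Ackr1. Ackr4 overlaps Acad11 and Ackr1 overlaps Cadm3 in RefSeq.

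Ccl25, the thymic and gut ligand of Ccr9, had 30 and 28 reads in the Cbx2-/- libraries and 37 and 25 in the wild-type libraries, and the genotypes overlapped. Ccr10, the receptor of Ccl28, had 6 and 1 reads in the Cbx2-/- libraries and 7 and 5 in the wild-type libraries. The other 18 members had 1 to 9 reads over the 4 libraries, and their reads summed to 26 and 19 in the Cbx2-/- libraries and 21 and 8 in the wild-type libraries. They include the interferon-induced ligands Cxcl9, Cxcl10 and Cxcl11 and their receptor Cxcr3, the lymphoid ligand Ccl19 and its receptor Ccr7, and the lymphocyte receptors Cxcr5 and Ccr9. Cxcl10 had 3 and 0 reads in the Cbx2-/- libraries and 6 and 0 in the wild-type libraries. Ccl20 and Ccr3 had 4 and 5 reads in all. None of the 18 was called or had a deposited p under 0.05, and no difference was detectable at this depth.

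**Figure D5:**
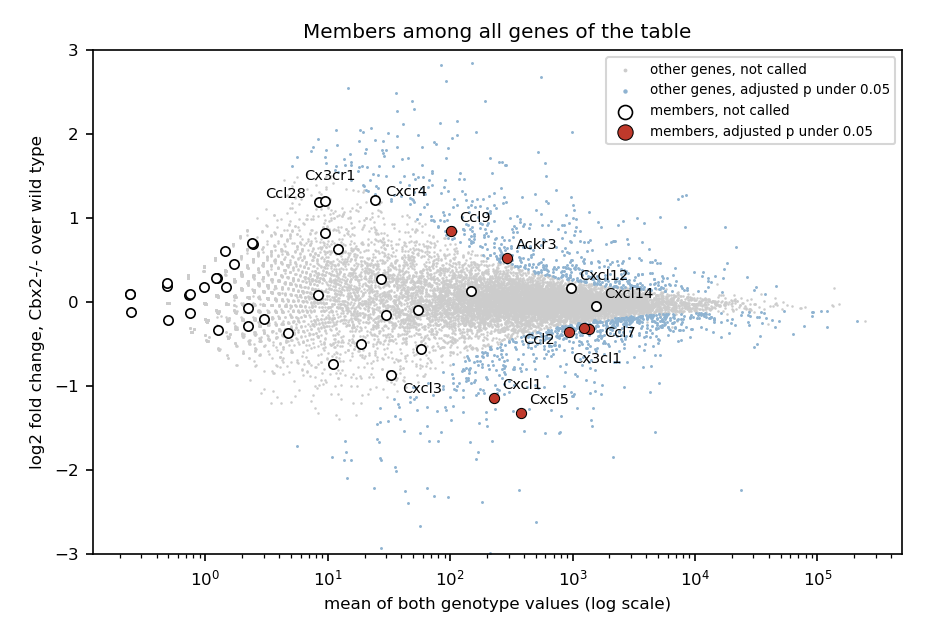
Deposited log2 fold change (Cbx2-/- over wild type) against the mean of both genotype values (log axis) for all genes of the table, with the 45 members as large points, filled where the adjusted p was under 0.05. The 11 genes beyond a log2 fold change of 3 are not drawn. Called members lie at means of 101 and above, and most members lie where few genes of the table were called.

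Genes that work with chemokines were read from lists, whose counts stand beside the 7.78% of all genes called and the 11.4% called at a mean of 100 or more. Of 13 family genes outside the symbol rule 1 was called higher and 2 lower, with a median log2 fold change of 0.028. Pitpnm3, reported in human cells as a receptor of CCL18, rose to 186 in Cbx2-/- cells, against 11.5 in wild-type cells (log2 fold change 4.01, adjusted p = 6.04e-28, authors' deposited table). Rarres2, which encodes the chemoattractant chemerin, fell to 136 in Cbx2-/- cells, against 327 in wild-type cells (log2 fold change -1.26, adjusted p = 7.29e-11, authors' deposited table). The cytokine gene Mif fell by 0.18 on the log2 scale (adjusted p = 0.00333, authors' deposited table).

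Of 36 genes of receptor signalling 3 were called higher and 3 lower, with a median log2 fold change of -0.017. Gng12, a G-protein subunit gene, fell to 3688 in Cbx2-/- cells, against 4455 in wild-type cells (log2 fold change -0.27, adjusted p = 2.51e-06, authors' deposited table). Rgs5, which shuts off G-protein signals in pericytes, fell to 104 in Cbx2-/- cells, against 222 in wild-type cells (log2 fold change -1.10, adjusted p = 4.61e-06, authors' deposited table). The kinase gene Ptk2b fell to 239 in Cbx2-/- cells, against 413 in wild-type cells (log2 fold change -0.79, adjusted p = 3.58e-05, authors' deposited table). Rac2, a GTPase of blood cells, had 44 and 51 reads in the Cbx2-/- libraries and 8 and 10 in the wild-type libraries (deposited log2 fold change 1.82, adjusted p = 0.000803). The macrophage markers given above moved in the same direction as Rac2, and their part in it was not tested.

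Of 30 genes of heparan sulphate synthesis and its core proteins 5 were called higher and 7 lower, with a median log2 fold change of -0.024. The core protein gene Gpc3 rose to 570 in Cbx2-/- cells, against 309 in wild-type cells (log2 fold change 0.88, adjusted p = 7.42e-10, authors' deposited table). Gpc1, another core protein gene, rose by 0.26 on the log2 scale (adjusted p = 8.77e-07), and Sdc3 fell by 0.24 (adjusted p = 1.97e-06, authors' deposited table). Hs6st1, a sulphotransferase of the chain, fell to 1442 in Cbx2-/- cells, against 1829 in wild-type cells (log2 fold change -0.34, adjusted p = 4.95e-05, authors' deposited table). Of 14 protease genes known to cut chemokines 3 were called, all lower, with a median log2 fold change of -0.029. They were Mmp14 (-0.36, adjusted p = 5.18e-22), Mmp2 (-0.31, adjusted p = 6.80e-11) and Mmp3, which had 72.6 in Cbx2-/- cells and 180 in wild-type cells (log2 fold change -1.31, adjusted p = 8.72e-07, authors' deposited table). The macrophage elastase Mmp12 had 23 and 24 reads in the Cbx2-/- libraries and 5 and 6 in the wild-type libraries. It was not called in the authors' deposited table (log2 fold change 1.35, adjusted p = 0.0835), and its log2 fold change from reads was 1.92 (adjusted p = 0.00407 in limma).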

How the data were processed

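RNA was measured in 2 Cbx2-/- and 2 wild-type libraries, grouped by the genotype in their labels. The authors deposited 1 table, with a normalised read signal per genotype. Its log2 fold change, p-value and adjusted p-value columns were deposited by the authors from DESeq2, and the adjusted values equal a Benjamini-Hochberg adjustment over 17441 genes to within 1.33e-06. The submitters' processing notes name the tools HISAT2, Bowtie2, RSEM and DESeq2 and the build mm10. Their versions and roles, and any filter, are not given in sources used here. The design assumed that counts per library might be given; as they were not, the authors' test was read. A standard error is the deposited log2 fold change divided by the normal quantile of its p, and an interval is 1.96 such errors either way. Such an error does not measure a gene's own spread alone. Ackr4 and Cx3cr1, both at a mean of 9.52, had errors of 0.537 and 0.534. Their wild-type reads were 9 and 1 for Ackr4 and 5 and 2 for Cx3cr1.

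Averaged over both columns, a gene's value equals its scaled reads averaged over the 4 libraries, so whole reads were solved for. All 6126 genes with a mean under 50 and 482 of 505 at 50 to 75 had exactly 1 solution. Decoy values had one in 0% of cases at means under 15, 0.667% at 15 to 30, 6.667% at 30 to 50 and 9.333% at 50 to 75, so reads at the higher means are less sure. Size factors were 1.03 and 1.03 for Cbx2-/- and 1.01 and 0.935 for wild type. limma 3.58.1 (R 4.3.3) was fitted with a trend and Benjamini-Hochberg adjustment, and for members over genes with 10 or more reads. Recovery and limma were tested on simulated data, where limma over all recovered genes missed most set changes. With 2 libraries against 2, an exact permutation test cannot give a two-sided p below 0.333. Depth limits single genes, with a median standard error of 0.41 on the log2 scale at a mean up to 10 and 0.14 at 100 to 1000.

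Gene identifiers matched a RefSeq GRCm38.p6 table in 17400 cases, which gave coordinates and promoters, and 26 symbols turned into dates were restored. That table has 54 genes matching the symbol rule, and those outside the 45 are not analysed here. Members and lists were chosen with earlier results of these data known. Members that were called or had a mean of 100 or more are given in full, the others by their reads (1 of them is not reported here), and genes outside the set are Cbx2, up to 4 called genes of each list by adjusted p, and defining markers. Il16, Ppbp, Pf4, Krt19 and Mmp12 fall outside this rule and were named after their values were seen. Alternatives were other filters, added spread between libraries, pseudocounts, scaling, voom weights and leaving out a library.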

Additional observations from a re-analysis of the deposited data

How the results depend on the processing

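Of the 2 higher and 5 lower calls among chemokine genes, 0 and 2 remained when a 2-fold change was also asked for (175 and 119 over all genes), with Cxcl5 and Cxcl1 the 2 lower ones. With the median value as a minimum 1 higher and 4 lower were called, since Ccl9 and Cxcl1 lie under it. With 10% of spread between libraries added to the deposited errors, 0 higher and 2 lower remained (235 and 190 over all genes), again Cxcl5 and Cxcl1, and adjusted p was 0.803 for Ccl7, 0.654 for Ccl2, 0.875 for Cx3cl1, 0.111 for Ccl9 and 0.296 for Ackr3. With 20% added, 0 higher and 1 lower remained (68 and 57 over all genes), namely Cxcl5, and adjusted p was 0.0911 for Cxcl1. The calls of Ccl2, Ccl7, Cx3cl1, Ccl9 and Ackr3 were therefore not kept once spread was added. It was added to all genes and p was adjusted anew, so a lost call need not reflect that gene's own spread alone. Leaving out a library could not be done for the authors' calls. No paired analysis was possible because the columns of the table carry no replicate number.

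The limma fit on recovered reads called 0 higher and 0 lower over all genes, and 273 and 122 over genes with 10 or more reads. Within those genes it called 287 and 128 with a pseudocount of 1, 232 and 105 with a pseudocount of 0.1, 280 and 135 with voom weights and 33 and 8 without scaling, choices added after the data were seen. Without scaling, adjusted p was 0.0586 for Cxcr4, 0.0778 for Ccl28, 0.116 for Cx3cr1 and 0.154 for Cxcl3, and with voom weights Cxcr2 had 0.0384. Leaving out a library gave 17 to 520 higher and 6 to 379 lower over all genes, and over those with 10 or more reads 82 and 85 higher and 61 and 75 lower without a Cbx2-/- library, and 0 either way without a wild-type library. The cause of these differences was not tested. Of 346 values of single members under alternatives 338 kept their direction. Filters and added spread leave a deposited fold change as it is. The limma filter of 10 or more reads leaves those of the fit over all genes. Such values could not turn, so the count is no measure of stability. The 8 that reversed did so when 1 library was left out. Log2 fold changes then ran from -1.47 to 0.10 for Ccl8 and -0.32 to 0.098 for Cxcr6. They ran from -0.38 to 0.070 for Ccl25 and -0.28 to 0.75 for Cxcl2. Members under 10 reads are too shallow for any comparison.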
